A study of Homo sapiens with 6 samples.

Results

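Collagen fibres depend on enzymes that modify the chains inside the cell and join them outside it, and 10 genes of this machinery were followed here among the 35716 genes of the count table. They were taken by symbol, each matching 1 gene ID, and cover the lysyl oxidases LOX, LOXL1, LOXL2, LOXL3 and LOXL4, the lysyl hydroxylases PLOD1, PLOD2 and PLOD3, the prolyl hydroxylase subunit P4HA2, and SERPINH1, the collagen chaperone HSP47. All libraries came from MIA PaCa-2, an established line of human pancreatic ductal adenocarcinoma cells, labelled wild type, and were made from poly(A) RNA. The untreated group held 3 libraries from cells in serum-containing medium for 24 h, and the other group held 3 libraries from cells given 10 nM triptolide, a plant diterpenoid that blocks transcription initiation through the TFIIH helicase XPB, for 24 h. The labels describe no vehicle for the untreated group and no separate cultures within a group, so p-values reflect only how these libraries varied, and that variation may be technical. Although the series text uses the word control for the triptolide cells, each library was assigned by its own treatment label.

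Prolyl hydroxylases act on nascent procollagen in the endoplasmic reticulum, where hydroxyproline stabilises the helix. Lysyl hydroxylases modify lysines that later carry sugars or crosslinks, and HSP47 binds the folded helix until it leaves for the Golgi. After secretion, the copper enzymes of the LOX family oxidise lysine and hydroxylysine side chains to aldehydes, which then crosslink collagen and elastin. In pancreatic carcinoma this machinery is known mostly from the fibroblasts of the stroma, and carcinoma cells also express parts of it.

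Library totals ran from 16302961 to 23262713 counts, and 15202 genes passed the filter on low counts. With edgeR, 1527 of them rose and 884 fell, so that 63.33% of the calls were higher. This share was 40.35% when each library was corrected for GC content, 73.77% with library totals alone and 90.28% with scaling on ribosomal protein genes. Under that last scaling the typical tested gene sat at a log2 fold change of 0.17 instead of -0.0040, so each change stands relative to this centre. Among 10 markers listed for the line, the keratin genes KRT8 and KRT18 stood at 1894 and 870 CPM (read counts scaled to a common library size after TMM scaling) in untreated cells, and VIM at 2260 CPM. Of the 8 tested, 2 fell and 0 rose in edgeR, with a median log2 fold change of -0.24: KRT18 fell 1.73-fold (adjusted p = 0.012) and VIM 1.66-fold (adjusted p = 0.042). Before adjustment 3 were below and 0 above at an edgeR p under 0.05, while DESeq2 called 3, limma-voom 2 and the GC correction 4 lower, and each 0 higher. EPCAM had 4 counts and CDH1 5 counts over the 3 untreated libraries, so these epithelial adhesion genes were nearly absent.

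Of the 10 genes, 8 had enough counts for the test. LOX fell 2.28-fold with triptolide, the only call (edgeR adjusted p under 0.05). No member rose. Among all tested genes 5.82% fell and 10.0% rose, and a single call in 8 genes lies close to that background, in which 15.9% were called in either direction. At an unadjusted p under 0.05 in edgeR, P4HA2 and SERPINH1 were higher and LOX lower, where 17.1% and 13.8% of all tested genes were higher and lower. DESeq2 called 0 members higher and 1 lower, against 9.90% and 7.39% of all tested genes. The same member counts came from limma-voom, against 9.76% and 5.91%, and from edgeR with the GC correction, against 11.8% and 17.5%. The median log2 fold change of the 8 tested members was 0.23, against -0.0040 over all genes tested, and 7 of the 8 had a value above 0, as did 49.7% of all tested genes. With the GC correction the members' median was 0.16 against -0.077 over all tested genes, and 5 of the 8 were above 0, as were 42.9% of all tested genes.

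**Figure D1:**
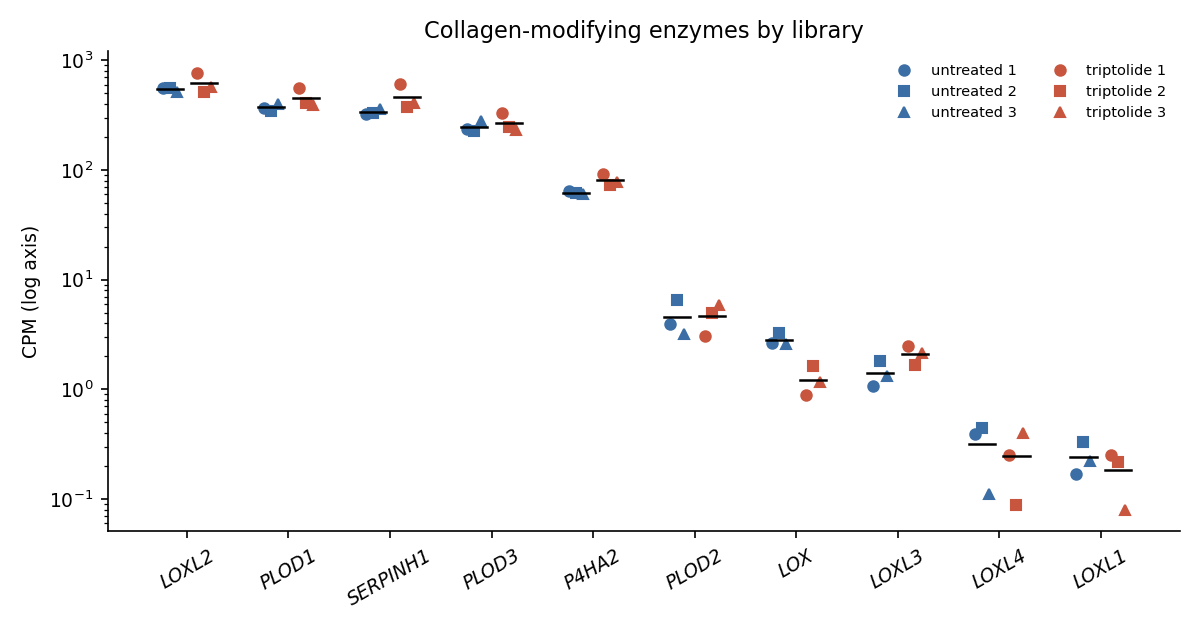
CPM of the 10 genes (log axis) in each library, untreated in blue and triptolide in red, with symbols for the replicate number and bars for the group means. LOXL2, PLOD1, SERPINH1 and PLOD3 lie between 228 and 772 CPM, LOXL1 and LOXL4 lie below 0.5 CPM, and LOX is the gene whose triptolide libraries all lie below its untreated ones.

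The levels of the 10 genes differed widely. Divided by exon length, untreated cells had 95.8 ± 4.66 CPM per kb of LOXL2 (SD, n = 3 libraries here and below), 69.9 ± 5.30 of PLOD1, 53.7 ± 3.47 of SERPINH1 and 43.5 ± 4.91 of PLOD3. The ranges of these 4 genes did not overlap between neighbours in untreated cells. P4HA2 followed at 7.26 ± 0.25 CPM per kb, and the remaining genes were all below 1: PLOD2 at 0.59 ± 0.23, LOX at 0.51 ± 0.069, LOXL3 at 0.32 ± 0.089, LOXL4 at 0.086 ± 0.049 and LOXL1 at 0.066 ± 0.023. PLOD2 and LOX did not differ beyond their spread, nor did LOXL4 and LOXL1. In triptolide libraries the ranges of LOXL2 and PLOD1 overlapped, as did those of PLOD1 and SERPINH1, and of PLOD2 and LOXL3. Within each single library of both groups, the order LOXL2, PLOD1, SERPINH1, PLOD3 was nevertheless the same. LOX stood above LOXL3 in every untreated library, and below it in every triptolide library, where LOX ranged from 0.16 to 0.29 CPM per kb and LOXL3 from 0.38 to 0.56.

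P4HA2 (ENSG00000072682) encodes a catalytic alpha subunit of collagen prolyl 4-hydroxylase, which works in a complex with the disulphide isomerase P4HB. It stood at 63.9, 61.6 and 59.7 CPM in untreated replicates 1 to 3 and at 92.4, 73.4 and 78.1 CPM in triptolide replicates 1 to 3. The groups did not overlap, with all triptolide libraries higher, a pattern found in 19.8% of all tested genes. Its log2 fold change was 0.40 ± 0.16 (SE), with a 95% interval from 0.051 to 0.74 and an edgeR adjusted p of 0.11, so it was not called. With the GC correction the value was 0.24 (adjusted p = 0.13). The paralogue P4HA1 is no member and is given for the family, chosen after its values were seen. Its CPM was 44.7, 46.2 and 47.5 in untreated and 47.9, 88.8 and 76.2 in triptolide libraries (edgeR adjusted p 0.066, or 0.0028 after the GC correction). The P4HA1 groups did not overlap either. In triptolide replicate 1 P4HA2 had its highest value and P4HA1 its lowest of the group. P4HA2 made up 34.1, 32.6 and 31.3% of the family's level per kb in untreated cells, and 41.1, 23.1 and 27.1% in triptolide cells, with no common direction. P4HA3, the rare subunit, had 11 counts in each group.

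Lysyl hydroxylase PLOD1 (ENSG00000083444), which acts on lysines within the helix, stood at 366, 347 and 403 CPM untreated and at 562, 409 and 387 CPM with triptolide. Triptolide replicate 1 stood far above the untreated range and replicate 2 just above it, and the groups overlapped (log2 fold change 0.28 ± 0.18 SE, 95% interval from -0.11 to 0.67, edgeR adjusted p = 0.31). The PLOD1 value was 0.11 without triptolide replicate 1 and 0.078 with the GC correction. PLOD3 (ENSG00000106397), which is also a glycosyltransferase for hydroxylysine, stood at 234, 228 and 279 CPM untreated and at 332, 244 and 231 CPM with triptolide. Its groups overlapped as well, and its log2 fold change of 0.12 ± 0.18 (adjusted p = 0.69) turned to -0.038 without triptolide replicate 1 and to -0.088 with the GC correction. PLOD2 (ENSG00000152952) hydroxylates the telopeptide lysines that lead to stable pyridinoline crosslinks, and it is a known target of hypoxia-inducible factor. It was scarce, at 3.93, 6.48 and 3.19 CPM untreated and 3.09, 4.99 and 5.87 CPM with triptolide. The spread within each group exceeded the difference between them (log2 fold change 0.05 ± 0.30, 95% interval from -0.61 to 0.71, adjusted p = 0.93), and an interval this wide does not show that PLOD2 was level.

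The balance between PLOD1 and PLOD3 can be read within each library, without any scaling between libraries. PLOD1 made up 62.2, 61.4 and 60.4% of the family's summed level per kb in untreated libraries and 64.2, 63.7 and 63.7% in triptolide libraries. The means were 61.3 ± 0.90% and 63.9 ± 0.29%, and the groups did not overlap. PLOD3 made up 38.1 ± 1.01% and 35.6 ± 0.090%, and PLOD2 less than 1% in every library. This shift of PLOD1 against PLOD3 was not tested.

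SERPINH1 (ENSG00000149257) encodes HSP47, a serpin without protease-inhibiting function that holds procollagen in the endoplasmic reticulum and is known as a heat shock gene. It stood at 321, 329 and 362 CPM in untreated replicates 1 to 3 and at 613, 377 and 411 CPM in triptolide replicates 1 to 3. All triptolide libraries lay above all untreated ones, by little in replicates 2 and 3. The log2 fold change was 0.47 ± 0.19 (SE), with a 95% interval from 0.045 to 0.89 and an edgeR adjusted p of 0.13. Without triptolide replicate 2 the adjusted p was 0.0497, and without triptolide replicate 1 the log2 fold change was 0.24 with an adjusted p of 0.22, close to the 0.24 (adjusted p = 0.14) with the GC correction. RefSeq's table of regions before gene starts holds 9 of the 10 members, and SERPINH1 has there a full heat shock element, meaning TTC, GAA and TTC with any 2 bases between neighbours, searched on both strands of the 250 bases before each start. Such an element was found in 0.441% of 35116 starts, and among the members in SERPINH1 alone. The element is shown because heat shock factors are known to bind such sites. The printed stretch lies on chr11:75562169-75562198 of GRCh38.p14, plus strand, with its first capital 76 bases before a start, and it overlaps 3 annotated exons.
SERPINH1: ttccaactTTCCAGAAGTTTCtcgggacgg
The capitals mark the element. Beside it, 6 of 20 tested heat shock genes rose and 1 fell. HSPA1A rose 2.62-fold, HSPA6 5.04-fold and DNAJA4 2.12-fold, while the constitutive chaperone gene HSPA8 fell 1.67-fold. With the GC correction 7 were higher and 5 lower. The 20 genes had a median log2 change of 0.09, against -0.0040 over all tested genes.

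LOX (ENSG00000113083) encodes the founding lysyl oxidase, a secreted copper enzyme that starts the crosslinking of fibrillar collagen and elastin. It stood at 2.64, 3.27 and 2.59 CPM in untreated replicates 1 to 3, from 47, 59 and 47 counts. In triptolide replicates 1 to 3 it stood at 0.88, 1.62 and 1.16 CPM, from 14, 37 and 29 counts. Every triptolide library lay below every untreated one, a pattern found in 16.9% of all tested genes. The log2 fold change was -1.19 ± 0.28 (SE), with a 95% interval from -1.80 to -0.58 and an edgeR adjusted p of 0.014. The call was lost without untreated replicate 2 (log2 fold change -1.08, adjusted p = 0.061), without triptolide replicate 3 (-1.14, adjusted p = 0.053) and with scaling on ribosomal protein genes (-1.03, adjusted p = 0.10). With the GC correction the log2 fold change was -1.12 and the adjusted p 0.0062.

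LOX is also known as a target of hypoxia-inducible factor (HIF), whose response elements hold the core ACGTG or GCGTG. The stretch before a LOX start, the one with the longest exon-free stretch, is shown with that of PLOD2. An annotated exon bounds this LOX stretch upstream, and another LOX start lies further upstream. The printed LOX stretch is thus not the region before the most upstream LOX start. Both stretches carry these cores, and a link between the cores and the values of these genes was not tested. Both strands were searched. The LOX stretch is 131 bases, chr5:122077224-122077354, and the PLOD2 stretch 250 bases, chr3:146161185-146161434, both from RefSeq on GRCh38.p14, minus strand, ending at the base before a start and free of annotated exons.
LOX: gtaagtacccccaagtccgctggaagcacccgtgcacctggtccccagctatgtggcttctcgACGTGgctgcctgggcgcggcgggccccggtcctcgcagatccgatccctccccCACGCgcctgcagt
PLOD2: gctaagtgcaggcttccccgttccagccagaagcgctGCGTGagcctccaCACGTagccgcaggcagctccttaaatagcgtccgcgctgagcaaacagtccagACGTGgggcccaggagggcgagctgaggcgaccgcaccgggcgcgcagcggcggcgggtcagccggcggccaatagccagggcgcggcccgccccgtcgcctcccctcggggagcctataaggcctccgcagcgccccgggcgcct
Capitals mark the cores on either strand, 2 in the LOX stretch and 3 in that of PLOD2. The stretches differ in length, so these counts are not comparable. These short cores are common: ACGTG was found in 18.5% and GCGTG in 32.2% of the 35116 windows of 250 bases. Cores also lie before starts of LOXL3, PLOD1 and, at its other start, SERPINH1, and 2 further LOX starts carry them. One of these has the same sites as the printed stretch, at -117 and -63 from its own start. The other lies upstream of the printed stretch and has 4 ACGTG cores, at -185, -116, -98 and -42. A match describes the letters only. Of 25 tested HIF target genes, 4 rose and 2 fell in edgeR, where 10.0% and 5.82% of all tested genes rose and fell. Their median log2 fold change was 0.03, against -0.0040 over all tested genes. With the GC correction 5 were higher and 4 lower. NDRG1 rose 2.46-fold and ANKRD37 rose 2.22-fold, while the mTORC1 inhibitor gene DDIT4 fell 1.80-fold and the lipid droplet gene HILPDA fell 1.58-fold. EGLN3, a prolyl hydroxylase gene outside the collagen lists, rose 7.27-fold from a low level, with 10 untreated and 88 triptolide counts.

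LOXL2 (ENSG00000134013), a lysyl oxidase known for crosslinking collagen IV of basement membranes, was the most abundant of the 10 genes. It stood at 564, 560 and 516 CPM untreated and at 772, 512 and 572 CPM with triptolide. The groups overlapped, and only triptolide replicate 1 lay far above the untreated range. The log2 fold change was 0.18 ± 0.18 (SE; 95% interval from -0.22 to 0.57, edgeR adjusted p = 0.55). It was 0.0016 without triptolide replicate 1 and -0.045 with the GC correction. LOXL2 held 99.0 ± 0.19% of the LOX family's level per kb in untreated and 99.2 ± 0.12% in triptolide cells. LOX itself held 0.48, 0.59 and 0.51% in untreated and 0.12, 0.32 and 0.21% in triptolide libraries. As a log2 ratio to LOXL2 per kb, LOX stood at -7.70, -7.38 and -7.60 in untreated and at -9.73, -8.26 and -8.91 in triptolide libraries. The family's summed level, 96.8 ± 4.76 CPM per kb untreated and 109 ± 23.9 with triptolide, was almost wholly LOXL2.

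LOXL3 (ENSG00000115318), a low-level member of the family here, stood at 1.07, 1.83 and 1.32 CPM untreated and at 2.46, 1.66 and 2.16 CPM with triptolide. The groups overlapped (log2 fold change 0.56 ± 0.29 SE, 95% interval from -0.071 to 1.19, edgeR adjusted p = 0.21). LOXL3 shares 625 of its 4363 exon bases with HTRA2 and 216 with DOK1, both on the opposite strand. HTRA2 had 2465 and 3152 counts per group where LOXL3 had 76 and 131. Whether the counting used strand is not known from the sources used here, and reads from the shared stretch cannot be told apart without it. LOX shares 138 of 5547 exon bases with SRFBP1, whose group sums were 668 and 664 counts, and PLOD3 shares 429 of 5671 with ZNHIT1. LOXL1, the elastin-directed member, had 3, 6 and 4 counts in untreated and 4, 5 and 2 counts in triptolide libraries. LOXL4 had 7, 8 and 2 counts in untreated and 4, 2 and 10 counts in triptolide libraries. Both were too low for the test, and a difference was not detectable at this depth.

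**Figure D2:**
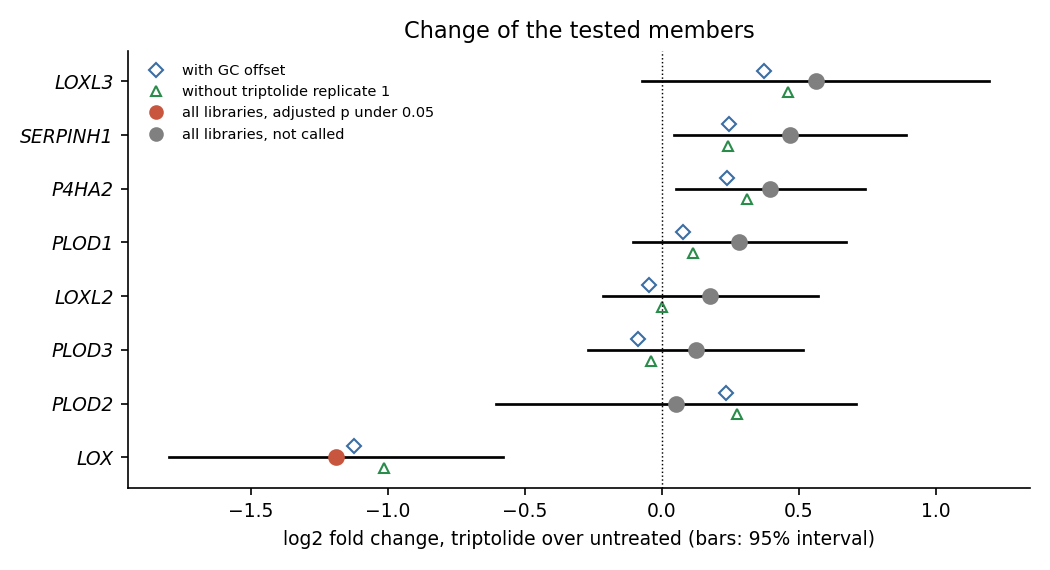
Log2 fold change of the 8 tested genes (filled points, red where called) with 95% intervals, and the same value with a GC correction (blue diamonds) and without triptolide replicate 1 (green triangles). LOX lies at -1.19 with all libraries and stays below -1.0 in both alternatives, while LOXL2, PLOD1, PLOD3 and SERPINH1 lie closer to 0 or past it in both.

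Triptolide replicate 1 stood apart by GC content. In that library genes with 35 to 40% GC had a median log2 level of -0.61 relative to the untreated mean, and genes with 55 to 60% GC had 0.30. The corresponding medians were -0.02 and -0.02 in triptolide replicate 2, and -0.05 and -0.0031 in replicate 3. The tested members fall on both sides of this slope. LOXL2, LOXL3, PLOD1, PLOD3 and SERPINH1 have transcripts of 57.5 to 60.0% GC, P4HA2 50.9%, LOX 42.4% and PLOD2 36.1%. In triptolide replicate 1 the 5 GC-rich genes had log2 levels from 0.43 to 0.86 over the untreated mean, and PLOD2 stood at -0.49. In replicates 2 and 3 the 5 ranged from -0.10 to 0.48. LOX was at -1.27, -0.65 and -1.01 in triptolide replicates 1 to 3, where the median of genes with 40 to 45% GC was -0.37, -0.0019 and -0.05. LOX lay below the median of its GC class in each of these libraries. Beyond the GC correction, the part of the GC slope in the members' values was not tested.

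**Figure D3:**
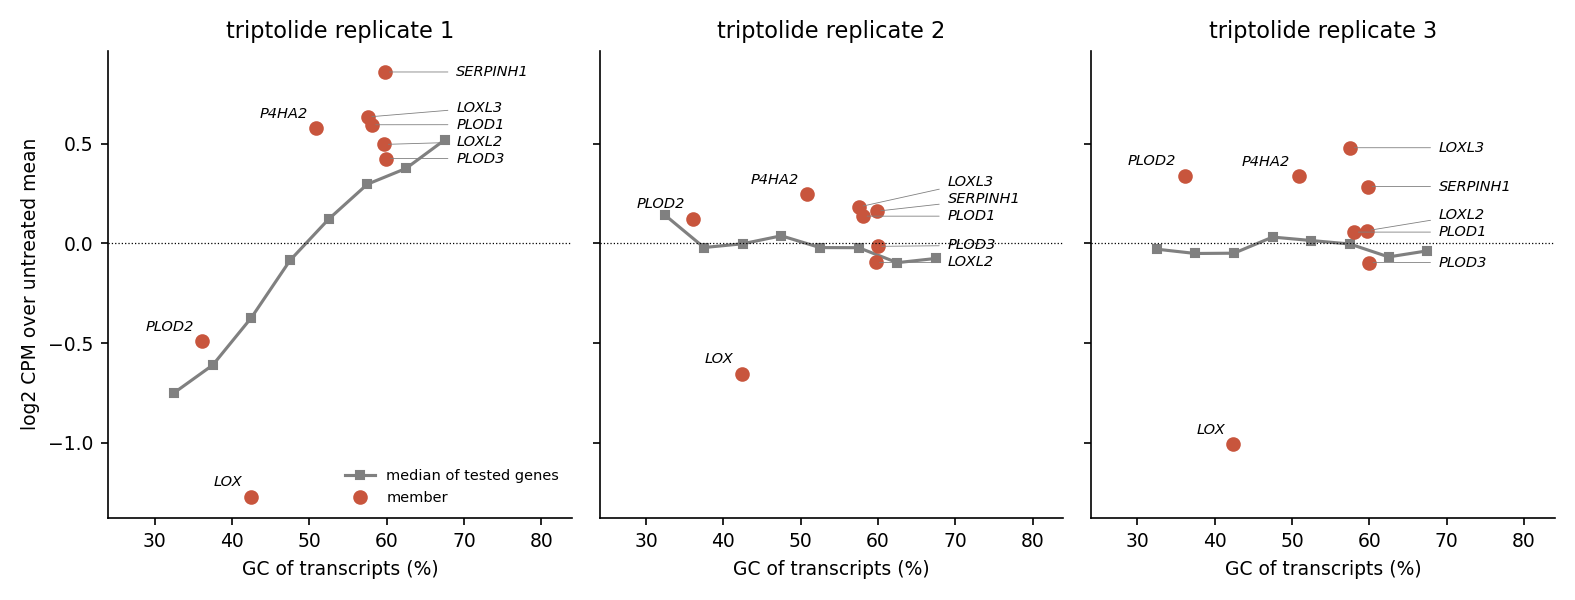
Log2 CPM of the 8 tested members over their untreated mean (0.5 CPM added) against the GC content of their transcripts, in each triptolide library, with the median of all tested genes in GC bins of 5 points (grey). In triptolide replicate 1 the grey line climbs from -0.75 to 0.52, in the other libraries it is never more than 0.14 from 0, and LOX lies below it in all 3.

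The other genes of collagen hydroxylation and folding in the endoplasmic reticulum are listed beside the members. Of 20 listed, 19 were tested, and the median log2 fold change was 0.01. In edgeR 0 of them rose and 2 fell, where 10.0% and 5.82% of all tested genes rose and fell. Before adjustment 2 were above and 3 below at an edgeR p under 0.05, DESeq2 called 1 higher and 2 lower, limma-voom 0 and 2, and the GC correction 2 and 4. P3H4, a component of a lysyl hydroxylation complex, fell 1.86-fold, from 66.8 ± 4.81 to 35.9 ± 6.93 CPM (adjusted p = 0.0058). P3H2, a prolyl 3-hydroxylase, fell 1.51-fold, from 21.5 ± 1.96 to 14.2 ± 0.90 CPM (adjusted p = 0.032). Of 15 genes for procollagen export and processing, 12 were tested and 0 passed in edgeR, DESeq2 or limma-voom, with a median of 0.05, while 4 were higher and 3 lower at an unadjusted p under 0.05 in edgeR. With the GC correction 2 of them were lower, among them the transglutaminase gene TGM2, a crosslinking enzyme outside the LOX family, with 601 ± 30.5 CPM untreated and 449 ± 97.2 with triptolide (edgeR adjusted p 0.13, or 0.0064 after the GC correction). Of 7 genes that deliver copper, the LOX cofactor, 0 passed in edgeR, also at an unadjusted p under 0.05, 0 passed in DESeq2 or limma-voom, and the median was 0.06. The copper importer gene SLC31A1 stood at 67.7 ± 9.39 and 75.7 ± 6.85 CPM and the copper chaperone gene ATOX1 at 52.3 ± 12.0 and 54.7 ± 7.60 CPM.

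Genes of the substrates include those with the biggest folds among the collagen lists. Of 23 collagen, elastin and microfibril genes, 20 were tested, with a median log2 fold change of -0.01. In edgeR 6 of them fell and 1 rose, where 5.82% and 10.0% of all tested genes fell and rose. COL1A1, the main chain of fibrillar collagen I, had 49.0, 73.1 and 61.1 CPM in untreated and 3.40, 2.45 and 2.64 CPM in triptolide libraries. FBN2 fell 3.55-fold from 3.09 CPM and COL12A1 6.25-fold from 1.11 CPM, and COL6A3 rose 2.49-fold to 326 ± 59.6 CPM. The more abundant chains differed less: COL1A2, the partner chain of COL1A1, stood at 323 ± 30.8 and 329 ± 54.5 CPM (edgeR adjusted p = 0.94) and COL5A2 at 850 ± 129 and 914 ± 104 CPM (adjusted p = 0.73), both chosen after their values were seen.

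**Figure D4:**
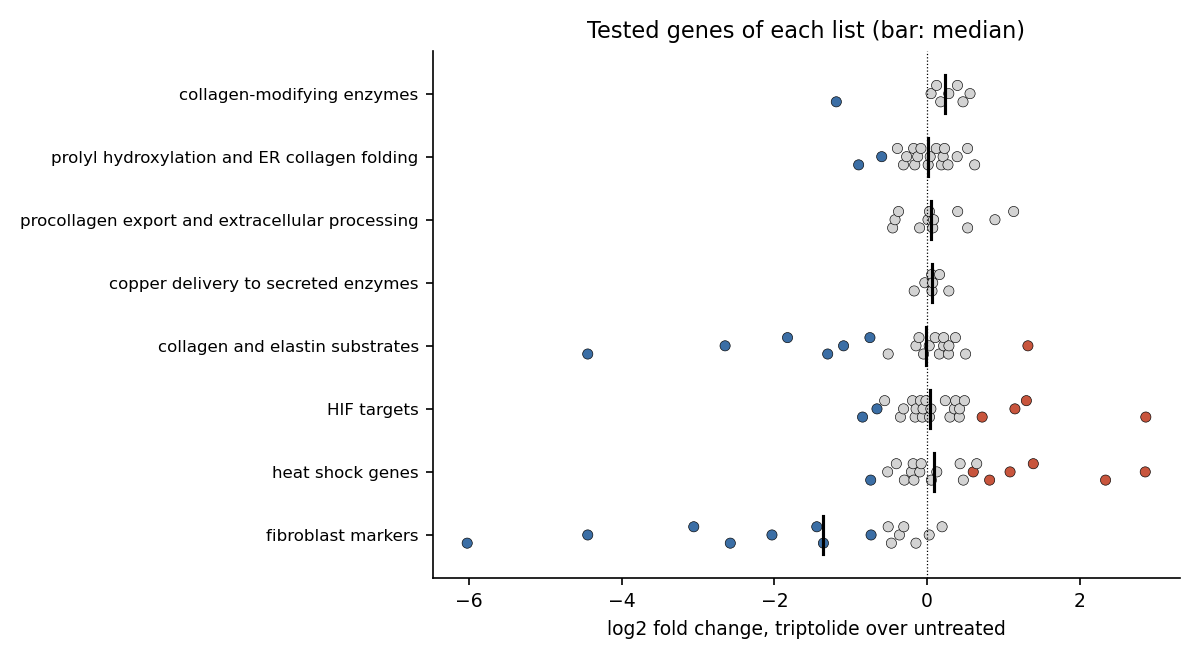
Log2 fold change of the tested genes of each list, red where they rose, blue where they fell and grey where not called, with a bar at the list's median. CDH2 and POSTN, with 3 or fewer counts in the triptolide libraries, are not drawn; the bars take in all tested genes of a list. The median of fibroblast markers lies at -1.36, and those of the hydroxylation, export and copper lists lie between 0.01 and 0.06.

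Listed markers of other cell types also moved with the groups, where 10.0% of all tested genes rose and 5.82% fell in edgeR. Of 20 fibroblast markers, 17 were tested, 10 fell and 0 rose in edgeR, with a median log2 fold change of -1.36. Before adjustment 12 were below and 0 above at an edgeR p under 0.05, and DESeq2 and limma-voom called 11 and 10 lower and 0 higher. Their summed level ran from 2809 to 4022 CPM in untreated and from 1812 to 2479 CPM in triptolide libraries, most of it VIM, which is also on the line's own list. Without VIM, 9 of 16 tested markers fell, and the sums were 996 to 1167 CPM and 718 to 750 CPM. THBS1 fell 64.9-fold and SPARC 5.97-fold. FAP and CDH2 were at 0 in the triptolide libraries, from 11 and 104 counts in the untreated group, and FAP was not tested. Listed markers that were not called in edgeR include COL1A2, DCN, FBN1 and S100A4, with log2 fold changes of 0.03, 0.20, -0.15 and -0.31. LOX also fell in these libraries, all made from the MIA PaCa-2 line, and a link to the fibroblast markers was not tested. Of 22 placental trophoblast markers, 19 were tested, 14 rose and 0 fell in edgeR, DESeq2 and limma-voom alike, with 15 higher and 0 lower at an unadjusted p under 0.05 in edgeR. Their sum ran from 183 to 203 CPM untreated and from 727 to 1112 CPM with triptolide. Most of the untreated sum was TFAP2A and PLAC8, with 6211 and 2923 counts in the untreated group. Neither was called (log2 fold change 0.15 and -0.23, edgeR adjusted p 0.55 and 0.57). CSH1, among those that rose, went from 4.92 to 430 CPM. HSD3B1, ERVFRD-1 and GCM1 were at 0 in the untreated libraries and had 116, 20 and 47 counts in the triptolide group. ERVFRD-1 and GCM1 were not tested. Of 12 blood and endothelial markers, 7 were tested, 5 rose and 1 fell. Their sums were 24.0 to 29.05 CPM untreated and 29.6 to 45.2 CPM with triptolide. Most of the untreated sum was CDH5, the gene that fell, from 23.6 to 15.9 CPM. HBA2, among those that rose, went from 0.15 to 4.66 CPM (29.9-fold). HBG1, HBG2 and CD68 were at 0 in the untreated libraries and had only 4, 10 and 6 counts in the triptolide group. These genes were not tested. The part of these markers in the members' values was not tested, and in bulk RNA fewer cells of a type and less RNA per cell cannot be told apart.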

How the data were processed

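The authors deposited whole-number counts per Ensembl gene for 6 poly(A) libraries. Per the submitters' processing notes, the tools were HISAT2 and featureCounts, with no version. For build, annotation and strand setting: not given in the sources used here. Symbols were matched by ID for 35639 of 35716 genes. Exon lengths and GC content came from GENCODE 29, whose release may differ from the authors' (99.2% of tested genes had a GC value).

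After filterByExpr and TMM scaling, edgeR 4.0.16 compared the 2 groups (glmQLFTest) in R 4.3.3, with Benjamini-Hochberg adjustment over all 15202 genes and a threshold of 0.05. SEs came from the fold change and its F statistic. Alternatives used RLE factors, library totals, ribosomal protein scaling (77 genes), no filter, a mean of 5 CPM, DESeq2 1.42.0, limma-voom 3.58.1, a replicate block, a GC offset per library (spline with 5 df) and each library left out. The scripts were tested on simulated data without a GC slope, with changed genes drawn only from those averaging at least 5 CPM. LOX, LOXL3 and PLOD2 lie below that level, so the recovery rates do not cover them. In that simulation 14 of 50 genes changed 1.5-fold were recovered and 48 of 50 changed 2-fold. Small changes are thus often missed, and a member not called is not shown to be unchanged. No pair of libraries within a group agreed within sampling noise (chi-square over degrees of freedom from 4.96 to 61.9).

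All 10 members were named. From each other list, up to 3 genes a direction with the smallest adjusted p were eligible, or the 2 most abundant where none passed, and not all of these are described. The members and lists were chosen with earlier results of these data known.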

Additional observations from a re-analysis of the deposited data

How the results depend on the processing

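Over all genes, scaling on ribosomal protein genes gave 128 lower calls, a mean of at least 5 CPM gave 584 higher and 336 lower among fewer genes tested, and the GC offset gave 2658 lower. Leaving out each library gave from 953 to 1580 higher and from 407 to 1034 lower calls; 953 and 407 came without untreated replicate 2, and 529 and 457 lower calls came without untreated replicate 1 and triptolide replicate 3. Among the members, leave-one-out fits gave from 0 to 1 higher and from 0 to 1 lower. The member that fell, LOX, was lost with ribosomal protein scaling (0 lower) and was not tested with a mean of at least 5 CPM (0 lower), which leaves 5 members. Its log2 fold change ran from -1.43 to -1.02 over 15 alternatives and its adjusted p from 0.0023 to 0.10; the cause was not tested.

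Signs turned for members that were never called. LOXL2 was at -0.045 with the GC offset and -0.042 with the GC offset and block together, and PLOD3 at -0.088 in both. Leaving out libraries took PLOD2 from -0.15 to 0.39 and PLOD3 from -0.038 to 0.22; PLOD2 was at -0.053 without untreated replicate 1. Of 88 family shares recomputed without a library or without dividing by length, 12 moved by 1 SD or more, all of them without dividing by length. In untreated cells P4HA1 then went from 67.1 to 42.7% of its family and P4HA2 from 32.7 to 57.1%. With 3 libraries, leaving 1 out cannot move a mean by as much as 1 SD, so those recomputed shares are no check. Library numbers did not pair the samples: deviations of same-numbered libraries correlated at 0.029, -0.041 and -0.44. A replicate block gave 1523 higher and 856 lower genes, with 0 members higher and 1 lower, and with the GC offset, added after seeing the data, 1701 lower genes. Depth limits LOXL1 and LOXL4, each under 20 counts per group, and leaves LOX at 14 counts in its lowest library.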
